A study of Mus musculus with 9 samples.

Results

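The data compared 2 clonal lines in which Cdk8 had been knocked out in the same parental cells, clone 1 and clone 19. The 3 clone 19 libraries were set against the 3 clone 1 libraries on every gene with a level of at least 1 RPKM (reads per kilobase of gene, scaled to the size of the library) in at least 3 of these 6 libraries. This rule kept 12253 of the 28059 genes in the deposited table, and 6 of its 9 libraries entered the contrast. A gene was kept on the level in either clone, so a gene high in 1 clone only could also enter. Where every library of 1 clone was under 1 RPKM, this rule itself required that the clones not overlap.

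The cells were YAMC cells, an established, conditionally immortalised mouse intestinal line. Knockouts were made with CRISPR and labelled Cdk8 -/-, and parental YAMC cells were labelled wildtype. Cultures were kept at 32 degrees Celsius and taken during logarithmic growth, and total RNA was sequenced in 3 libraries for each of the 3 groups. The parental libraries are given here as the level from which both clones departed.

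Both groups of the contrast therefore shared the Cdk8 -/- genotype, the parental line and the growth conditions, and differed in which single cell they descended from. Each group was 1 clone, and a clone that had passed through the same steps with Cdk8 intact was not analysed here. The labels do not give the edit in either clone, and they do not say whether the libraries of a clone came from separate cultures. The p-values below therefore measure the spread between libraries, which may be technical, and not the spread between clones of 1 genotype. Effects of the edit and of clonal descent cannot be told apart.

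CDK8 is the kinase of a detachable module of Mediator, the complex that links transcription factors to RNA polymerase II. The module also holds cyclin C, MED12 and MED13, and the paralog CDK19 can take the place of CDK8. A line grown from 1 cell inherits what that cell carried, such as its chromosomes and the silent allele of each imprinted gene, and sister clones of cultured lines can differ in these.

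The labels name small intestine as the tissue, while the line's name is known to stand for young adult mouse colon. The defining markers of intestinal epithelium were at or near 0. Cdx2 and Alpi were listed at 0 in all 9 libraries, Vil1 reached at most 0.168 RPKM and Epcam at most 0.251 RPKM. Of 24 absorptive markers 1 was tested, and of 23 secretory markers 1. By contrast 17 of 18 mesothelial markers were tested. Their summed level was 3201 to 3296 RPKM in clone 1, 3270 to 3278 in clone 19 and 1824 to 1841 in the parental cells. The sum thus overlapped between the clones. It includes the keratin genes Krt8, Krt18 and Krt19, which are not particular to mesothelium, so it does not by itself name the cell type. Krt18 alone read 596 to 627 RPKM in clone 1, 580 to 584 in clone 19 and 386.4 to 399.5 in the parental cells. Depth, estimated from the step size of low values, ranged from 23.2 to 33.3 megareads over the 6 knockout libraries, and depths of the clones overlapped.

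The log2 levels of libraries correlated across tested genes, which are not replicates, at 0.997 within each clone and at 0.989 to 0.993 between the clones. Clone 19 replicate 2 stood apart from the other two clone 19 libraries. Among the 316 genes called with a difference of at least 0.5 on the log2 scale, it was the clone 19 library nearest to clone 1 in 230 genes (72.8%), against 9.49% for replicate 1 and 17.7% for replicate 3. Placed on a scale where the clone 1 mean is 0% and the clone 19 mean 100%, its median over these genes was 90.3%, against 107% and 103%. No clone 1 library held more than 37.7% of the genes in the matching count. Counts without that library are given beside those that it moved.

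Of the 12253 genes, 5325 (43.5%) were called different between the clones at an adjusted p under 0.05, from limma on log2(RPKM + 0.5) with Benjamini-Hochberg adjustment over all of them. In clone 19, 2275 genes (18.6%) were higher and 3050 (24.9%) were lower. Most of these differences were small: the median absolute difference was 0.10 on the log2 scale over all tested genes and 0.19 over those called. The libraries of the clones did not overlap for 51.8% of tested genes.

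Large differences lay more often toward clone 19. At a difference of at least 0.5, 233 called genes were higher and 83 lower. At 2-fold, 52 (0.424%) were higher and 2 (0.0163%) were lower. Without clone 19 replicate 2 these numbers were 59 and 5. Both of the lower genes, Snord64 and Snora75, are small nucleolar RNAs, whose short transcripts standard RNA libraries sample poorly. Snord64 was not called without clone 1 replicate 3 or clone 19 replicate 1, and Snora75 was not called in most of the runs that left out 1 library. Among the 10575 protein-coding genes tested, 46 were at least 2-fold higher in clone 19 and 0 were at least 2-fold lower. On the log2(RPKM + 0.5) scale, on which all these fold changes were taken, only Ndn, Spint2, Ccn2 and Lgi2 passed 4-fold. The ratio of plain RPKM was larger in low genes and passed 4-fold in others too, such as Pgc.

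**Figure D1:**
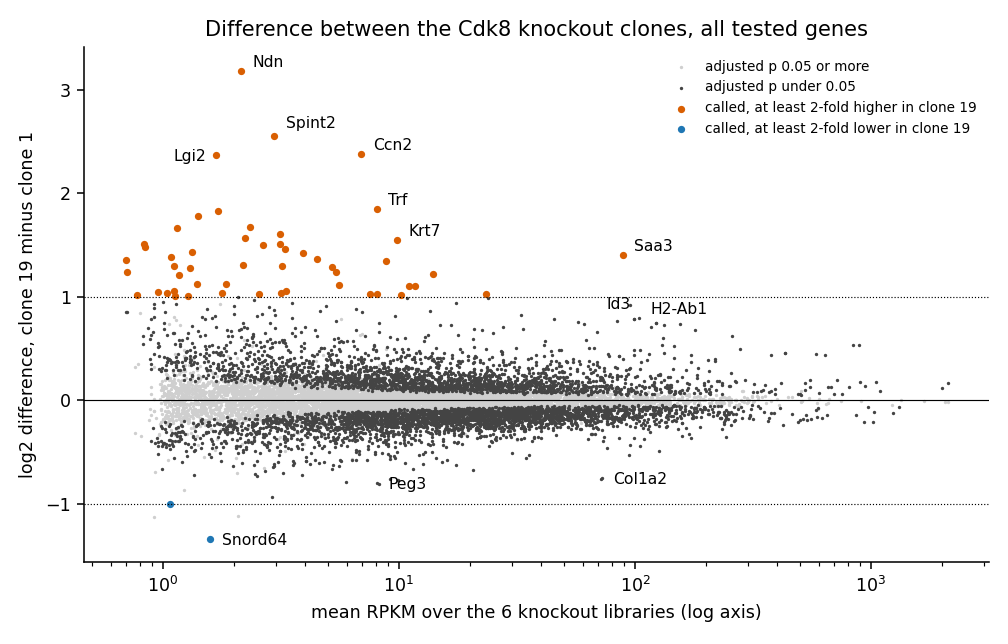
Log2 difference of clone 19 minus clone 1 against the mean RPKM of the 6 knockout libraries (log axis), 1 point for each of the 12253 tested genes; dark points were called and dotted lines mark 2-fold. The 52 called genes above the upper line mostly had low levels, and 2 called genes lie on or below the lower line.

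These 52 genes were mostly low in both clones. Their median level was 1.02 RPKM in clone 1, 3.99 in clone 19 and 1.79 in the parental cells, against a median of 11.7 for all tested genes, and 33 of them had a clone 19 mean under 5 RPKM. All 52 were without overlap between the clones, against 51.8% of all tested genes. Genes picked for a called 2-fold difference will mostly lack overlap, and the gap between their clone medians also follows from how they were picked. The parental mean lay above both clones in 14, between them in 17 and below both in 21. A fold change on the log2(RPKM + 0.5) scale understates the ratio of such low genes.

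Ndn, the imprinted gene of the protein necdin, differed most. Ndn was listed at 0, 0 and 0.0577 RPKM in clone 1, at 4.21, 3.46 and 5.10 in clone 19, and at 8.49, 8.04 and 8.44 in the parental cells. Its transcript was thus near 0 in every clone 1 library and present in every clone 19 library, below the parental level. The log2 difference was 3.18 (SE 0.11, adjusted p = 5.03e-08), a value that depends on the pseudocount because clone 1 was at or near 0. Snurf and Snrpn, imprinted genes of the same region, differed the other way. They share 1 transcription unit, so that their reads cannot be assigned apart. Snrpn read 4.05, 4.14 and 4.11 RPKM in clone 1 and 2.36, 2.54 and 2.07 in clone 19, from 1.07, 0.907 and 1.12 in the parental cells, a log2 difference of -0.71 (SE 0.08, adjusted p = 4.64e-05). Both clones thus lay above parental for Snrpn and below it for Ndn. Mkrn3 and Magel2, also imprinted genes of this region and named after their values were seen, were too low to be tested. Mkrn3 followed the order of Ndn, at 0.362 to 0.439 RPKM in clone 1, 0.443 to 0.575 in clone 19 and 0.617 to 0.681 in the parental cells. Magel2 was listed at 0 in every knockout library.

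Ccn2, the matrix protein connective tissue growth factor, read 1.90, 1.75 and 2.04 RPKM in clone 1, 13.1, 10.5 and 12.3 in clone 19, and 11.7, 11.3 and 10.3 in the parental cells. Clone 19 overlapped the parental level, and clone 1 lay below both groups. The log2 difference was 2.38 (SE 0.08, adjusted p = 5.03e-08). Its relative Ccn1, chosen after its values were seen, differed by 0.02 (adjusted p = 0.705), with 83.7 to 91.0 RPKM in clone 1 and 86.1 to 89.3 in clone 19. Ankrd1, a muscle ankyrin repeat protein, was low throughout, at 0.317, 0.139 and 0.108 RPKM in clone 1 and 1.97, 1.36 and 1.10 in clone 19, a log2 difference of 1.51 (SE 0.16, adjusted p = 4.29e-05).

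Spint2, a membrane inhibitor of serine proteases, read 0.354, 0.545 and 0.610 RPKM in clone 1, 6.53, 4.66 and 5.05 in clone 19 and 1.46, 1.38 and 1.57 in the parental cells. The groups did not overlap, with the parental cells between the clones, and the log2 difference was 2.56 (SE 0.12, adjusted p = 1.75e-07). Spint2 was under 1 RPKM in all of clone 1, so the filter fixed the lack of overlap between the clones. Lgi2, a secreted leucine-rich repeat protein, showed the same order: 0.246, 0.191 and 0.181 RPKM in clone 1, 2.84 to 3.47 in clone 19 and 0.596 to 0.716 in the parental cells. Its log2 difference was 2.37 (SE 0.09, adjusted p = 5.26e-08). Sfrp2, a secreted Wnt antagonist, also had the parental cells between the clones, at 0.323 to 0.413 RPKM in clone 1, 0.499 to 0.885 in the parental cells and 2.11 to 2.71 in clone 19 (log2 difference 1.78, adjusted p = 2.48e-06).

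A further set of leading genes lay below the parental level in both clones, and lowest in clone 1. Trf, which encodes the iron carrier transferrin, read 3.05, 3.48 and 3.14 RPKM in clone 1, 13.2, 11.9 and 13.4 in clone 19 and 24.4, 26.1 and 26.7 in the parental cells (log2 difference 1.84, SE 0.06, adjusted p = 5.03e-08). Mdk, the heparin-binding growth factor midkine, read 0.791, 0.914 and 0.852 RPKM in clone 1 and 3.83, 3.49 and 4.14 in clone 19, from 26.2 to 28.2 in the parental cells (log2 difference 1.67, SE 0.06, adjusted p = 5.26e-08). The keratin gene Krt7 read 5.10, 4.50 and 4.63 RPKM in clone 1 and 15.6, 13.8 and 15.1 in clone 19, from 21.0 to 22.9 in the parental cells (log2 difference 1.55, SE 0.06, adjusted p = 5.26e-08). In all 3 genes every parental library was above every knockout library, and the clones did not overlap, which the rule for picking them required. C2, a classical pathway complement protease, had the same order, at 1.25 to 1.35 RPKM in clone 1, 4.65 to 5.17 in clone 19 and 9.82 to 10.9 in the parental cells (log2 difference 1.61, or 1.36 after the subtraction of neighbouring genes described below). Its neighbour Cfb is counted separately in the table, and how reads over the pair were assigned is not given in the sources used here.

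In other leading genes clone 1 lay nearer to the parental level. Itgal, the alpha chain of the leukocyte integrin LFA-1, read 0.420, 0.527 and 0.456 RPKM in clone 1, 3.19, 2.57 and 3.05 in clone 19 and 0.255 to 0.407 in the parental cells (log2 difference 1.83, SE 0.10, adjusted p = 4.12e-07). The immune cell markers did not move with it: 2 of 23 were tested, 0 were called, and their summed level was 5.19 to 6.24 RPKM in clone 1 and 5.16 to 6.30 in clone 19. The leukocyte gene Ptprc was listed at 0 in all clone 1 libraries and reached 0.00601 RPKM in clone 19. Pgc, the gene of the stomach protease precursor progastricsin, lay at 0.280 to 0.299 RPKM in clone 1, 1.82 to 2.19 in clone 19 and 0.153 to 0.435 in the parental cells. Slfn5os, a long noncoding RNA antisense to Slfn5, lay at 0.775 to 1.05 RPKM in clone 1, 3.08 to 3.86 in clone 19 and 0.512 to 0.617 in the parental cells, and without stated strand its reads cannot be separated from those of overlapping genes.

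**Figure D2:**
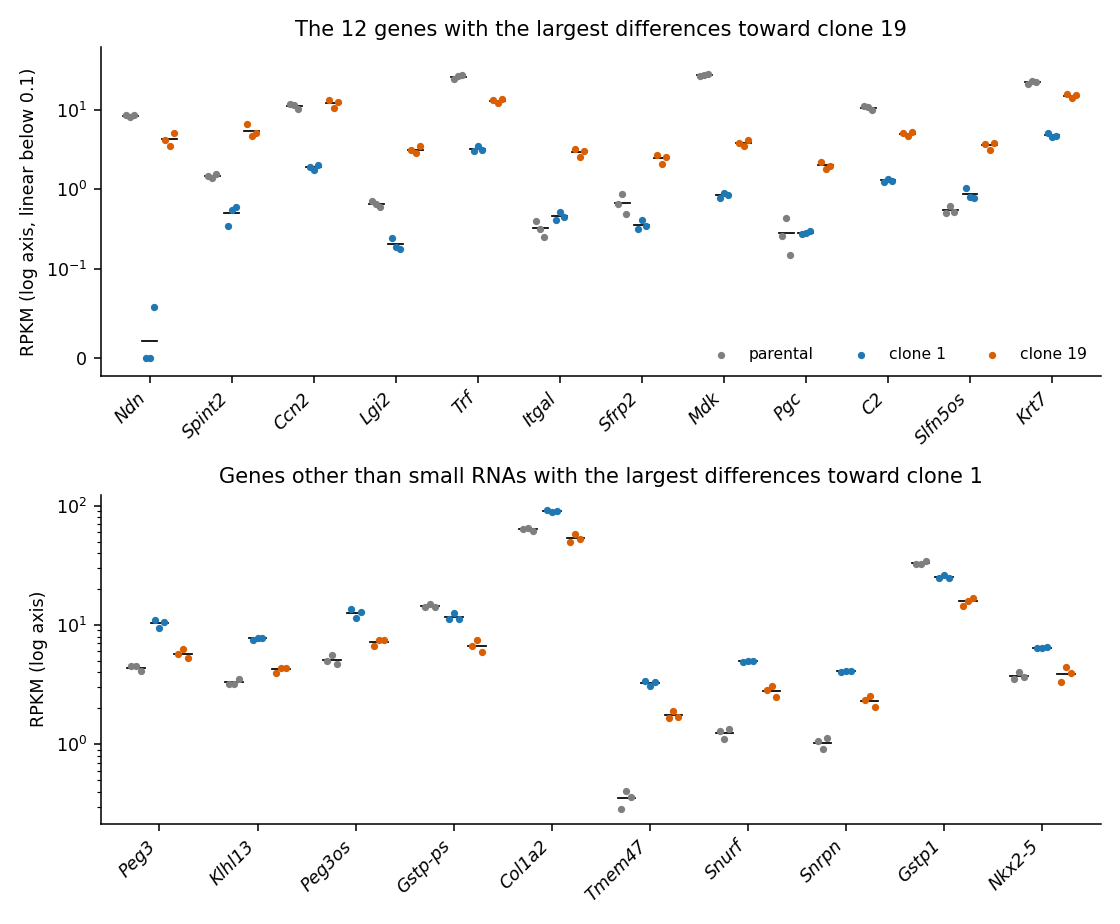
RPKM in every library (points) and group means (bars) of the 12 genes with the largest differences toward clone 19 (top, log axis that is linear below 0.1) and of 10 genes other than small RNAs with large differences toward clone 1 (bottom, log axis). The clone 1 and clone 19 libraries do not overlap in any gene shown, which the rule that picked the largest differences required. The parental libraries lie above, between or below them.

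The largest differences toward clone 1 were smaller than those toward clone 19. Small nucleolar RNAs, whose values varied widely among libraries, took the first places, and the next was Peg3, an imprinted zinc finger gene. Peg3 read 11.1, 9.43 and 10.6 RPKM in clone 1, 5.66, 6.34 and 5.24 in clone 19 and 4.49, 4.57 and 4.09 in the parental cells, a log2 difference of -0.80 (SE 0.07, adjusted p = 1.76e-05). All clone 1 libraries were above all clone 19 libraries, which were above all parental libraries. Peg3os, antisense to it, differed by -0.77, and its reads cannot be told apart from those of Peg3 without strand. Klhl13, a substrate adaptor of a ubiquitin ligase, read 7.51, 7.85 and 7.79 RPKM in clone 1 and 3.97, 4.40 and 4.37 in clone 19, from 3.21 to 3.51 in the parental cells (log2 difference -0.79, SE 0.05, adjusted p = 1.65e-06).

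Col1a2, a chain of type I collagen, had the highest level among the named genes of this set. It read 92.2, 89.1 and 89.6 RPKM in clone 1, 49.2, 58.3 and 52.3 in clone 19 and 64.1, 65.1 and 61.9 in the parental cells (log2 difference -0.76, SE 0.05, adjusted p = 1.64e-06). The parental cells lay between the clones without overlap. The other chain of the same protein, Col1a1, chosen after its values were seen, differed by -0.36 (adjusted p = 8.72e-06) but had fallen in both clones, at 192 to 198 RPKM in clone 1 and 146 to 157 in clone 19 from 364 to 391 in the parental cells. Tmem47, a junction membrane protein, read 3.37, 3.08 and 3.30 RPKM in clone 1 and 1.67, 1.90 and 1.69 in clone 19, both above its parental 0.288 to 0.408 (log2 difference -0.74, adjusted p = 3.92e-05). Gstp1, a glutathione transferase with near-identical relatives between which reads may be split, read 24.99, 26.5 and 24.6 RPKM in clone 1 and 14.6, 15.9 and 16.8 in clone 19, both below its parental 32.3 to 34.1 (log2 difference -0.67, adjusted p = 3.41e-06). The pseudogene Gstp-ps differed alike, by -0.76.

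The kinase module itself differed little between the clones. Cdk8 read 10.3, 11.1 and 11.6 RPKM in clone 1, 10.5, 10.3 and 10.3 in clone 19 and 17.5, 17.7 and 17.5 in the parental cells. The clones overlapped and lay below parental, and their log2 difference was -0.08 (SE 0.04, adjusted p = 0.138). Transcript of an edited gene can persist, so this level does not check the genotype. Ccnc, which encodes cyclin C, read 7.52, 7.52 and 7.34 RPKM in clone 1 and 8.34, 8.12 and 8.48 in clone 19, a log2 difference of 0.15 (SE 0.03, adjusted p = 0.00458). Cdk19 read 8.54, 8.18 and 8.42 RPKM in clone 1 and 9.20, 9.01 and 9.78 in clone 19, also a difference of 0.15 (SE 0.04, adjusted p = 0.014), which was not called without clone 19 replicate 3 (0.11). Neither gene overlapped between the clones. Med12 (0.05), Med13 (-0.07) and Med13l (-0.04) did not pass the test. Of 26 core Mediator subunits 3 were higher and 3 lower, which is 11.5% in each direction against 18.6% and 24.9% of all tested genes. Med17, Med1 and Med7 were each at -0.19 and Med20 at 0.19, and with neighbours subtracted Med17 (-0.06), Med20 (0.03) and Med25 (0.06, from 0.13), the last named after its values were seen, no longer passed, which left 1 higher and 2 lower.

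Part of the difference lay side by side along chromosomes. The median log2 difference was -0.16 on chromosome 1, -0.15 on chromosome 9, 0.16 on chromosome 17 and -0.17 on chromosome 18, while the medians of the other 16 chromosomes lay between -0.04 and 0.03. On chromosome 17, 330 of 573 tested genes were higher in clone 19 and 28 lower. On chromosome 18, 12 of 302 were higher and 209 lower, on chromosome 1 18 of 646 and 398, and on chromosome 9 18 of 624 and 384. These 4 chromosomes held 2145 tested genes, of which 65.1% were called, against 39.3% of the 9159 genes on the other chromosomes. The 4 were picked by their median difference between the clones, so a larger called share follows in part from that choice. They held 5 of the 52 genes that were at least 2-fold higher in clone 19.

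On each of these 4 chromosomes the 3 libraries of a clone fell together. Set against the mean of the 6 knockout libraries, the median deviation on chromosome 17 was -0.08, -0.07 and -0.09 in clone 1 and 0.09, 0.06 and 0.08 in clone 19. On chromosome 18 it was 0.09, 0.08 and 0.08 in clone 1 and -0.11, -0.07 and -0.07 in clone 19. The clones did not overlap on these 4 chromosomes, which picking them by the difference between the clones favours. Clone 19 replicate 2 lay nearest to clone 1 on all 4. On chromosomes 1, 9 and 18, clone 1 lay 0.14, 0.08 and 0.17 above the parental cells by its median, against -0.01, -0.08 and 0.01 for clone 19. Chromosome 17 lay below the parental level by 0.25 in clone 1 and by 0.10 in clone 19.

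**Figure D3:**
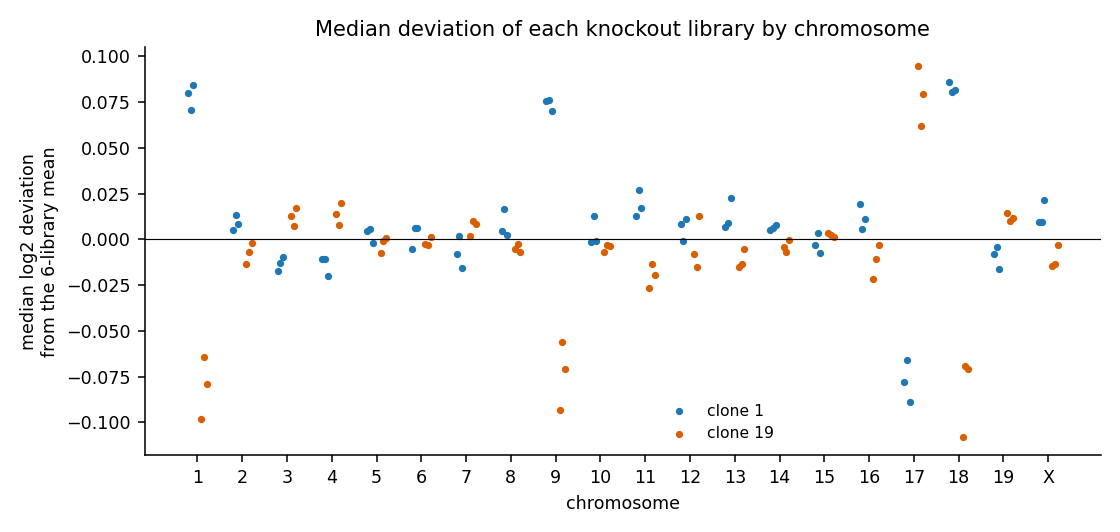
Median log2 deviation of each knockout library from the mean of the 6 knockout libraries, for each chromosome (x axis), 3 points for clone 1 and 3 for clone 19. Chromosomes 1, 9 and 18 are higher in all clone 1 libraries and chromosome 17 in all clone 19 libraries, while the points of most other chromosomes lie near 0.

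The extent of these shifts was traced with the median over each 51 neighbouring tested genes in the gene order of the reference. It stayed at 0.1 or beyond, for at least 51 genes on end, in 6 stretches that together held 1829 genes, or 16.2% of the 11304 genes with a place in that order. The stretch on chromosome 9 ran from Endod1 to Ctnnb1 over 574 genes, which are all its genes with a full window around them. Its ends are thus limits of the window and not of the shift, and no local median on this chromosome was above -0.107. The same held on chromosome 18, where the stretch ran from Mib1 to Hdhd2 over 252 genes and no local median was above -0.146. On chromosome 1 stretches ran from Coa5 to Rpl37a and from Glb1l to A230020J21Rik, over 122 and 405 genes. The later of these reached the last full window. A further stretch of 51 genes on chromosome 11, from Gid4 to Myh10, had a median of -0.13. Shorter runs reached 0.24 around Usf3 on chromosome 16, -0.18 around Cdkn2aipnl on chromosome 11 and 0.13 around Wdtc1 on chromosome 4. The stretch on chromosome 17 ran from 6330415G19Rik to Ypel5 over 425 genes, with 288 higher and 10 lower, and its local median peaked at 0.29 around C2, in the region of the H2 genes of the major histocompatibility complex (MHC). RNA levels alone do not give the copy number, which was not tested. To give each gene relative to its surroundings, the median of its 50 nearest tested neighbours was subtracted, and that value stands beside the genes it bears on. After subtraction 4053 genes were called, 2006 higher and 2047 lower, and 48 of the 52 remained called and at least 2-fold.

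The MHC class II presentation genes, which load and display peptides from the endocytic route, differed toward clone 19 in most members. Of 13 tested, 10 were higher and 0 lower, or 76.9% against 18.6% of all tested genes, with a median of 0.23 against -0.02. Counts of this and every further list are to be read against 18.6% higher and 24.9% lower among all tested genes. H2-Ab1, the beta chain of the classical I-A molecule, read 74.1, 77.5 and 75.5 RPKM in clone 1, 139, 126 and 130 in clone 19 and 71.2, 74.1 and 70.5 in the parental cells. Clone 1 and the parental cells overlapped and clone 19 lay above both. The log2 difference was 0.80 (SE 0.04, adjusted p = 1.22e-07), and 0.58 with neighbours subtracted. H2-Aa, its alpha chain, read 135, 141 and 139 RPKM in clone 1 and 236, 204 and 225 in clone 19, from 102 in each parental library, a log2 difference of 0.68 (adjusted p = 1.17e-06) and 0.45 with neighbours subtracted. H2-Eb1, the beta chain of I-E, differed by 0.76 (0.54 with neighbours subtracted) and the low H2-Eb2 by 0.81 (0.58). The peptide loading chains H2-DMb1 and H2-DMa, named after their values were seen, differed by 0.48 (0.25) and 0.41 (0.17). Members on other chromosomes, named after their values were seen, passed with smaller differences: the invariant chain Cd74 (0.13, or 0.29 with neighbours subtracted), the class II transactivator Ciita (0.23), the thiol reductase Ifi30 (0.14) and Rfxank (0.12). With neighbours subtracted Rfxank (0.10) no longer passed. The factor Rfx5 (-0.01) did not pass. With neighbours subtracted 9 members were higher and 1 lower.

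The promoters of 4 class II genes on chromosome 17 are shown because all 4 genes were higher in clone 19. Class II promoters carry an X box, bound by RFX proteins, followed by a Y box, an inverted CCAAT bound by NF-Y, through which CIITA is recruited. The RefSeq promoter table (GRCm38.p6) matched 9 of the 13 tested members. H2-Ab1 was not among these 9, so no promoter is shown for it. The 160 bases before each start are given 5′ to 3′ on the strand of the gene, with capitals for CCAAT on either strand and for part of an X box, CAACNGATG, searched on both strands and chosen after the data were seen; the motifs do not overlap. The windows are chr17:34287824-34287983 (minus strand) for H2-Aa, chr17:34305707-34305866 (plus) for H2-Eb1, chr17:34325515-34325674 (plus) for H2-Eb2 and chr17:34153031-34153190 (plus) for H2-DMb1.
H2-Aa: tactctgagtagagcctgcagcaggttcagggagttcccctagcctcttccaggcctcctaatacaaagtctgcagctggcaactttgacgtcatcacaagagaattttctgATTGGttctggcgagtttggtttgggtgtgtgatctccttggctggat
H2-Eb1: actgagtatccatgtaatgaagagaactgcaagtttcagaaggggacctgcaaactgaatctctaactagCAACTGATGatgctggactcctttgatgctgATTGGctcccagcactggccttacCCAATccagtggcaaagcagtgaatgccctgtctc
H2-Eb2: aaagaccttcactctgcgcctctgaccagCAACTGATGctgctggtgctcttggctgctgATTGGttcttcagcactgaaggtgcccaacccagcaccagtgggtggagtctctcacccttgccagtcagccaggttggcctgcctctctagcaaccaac
H2-DMb1: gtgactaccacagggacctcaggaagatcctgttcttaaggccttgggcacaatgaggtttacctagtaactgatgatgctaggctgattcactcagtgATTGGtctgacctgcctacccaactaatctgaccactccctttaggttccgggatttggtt

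H2-DMa, which was higher too, has 2 promoters in the table and is not shown: neither holds CCAAT or CAACNGATG in these 160 bases, and the second has CCAAT at -198. In all 4 windows shown, CCAAT was present in the inverted orientation, beginning at base -48 of H2-Aa, -59 of H2-Eb1, -100 of H2-Eb2 and -61 of H2-DMb1, counted from the start site. H2-Eb1 and H2-Eb2 held CAACNGATG, beginning at -90 and -131, and the windows of H2-Aa and H2-DMb1 did not. H2-DMb1 held a stretch that differs from it only in the first base. Only this string was searched, so its absence does not show that a window lacks an X box. Over the whole 300 bases of the table's promoters, CCAAT was in 8 of the 9 matched class II members (88.9%), 43.4% of tested genes and 41.1% of all genes in the table. CAACNGATG was in 2 of the 9, in 0.329% of tested genes and in 0.596% of all genes in the table. These matches describe letters in reference sequence, not binding, and the clones' own sequence was not examined.

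The MHC class I and peptide processing genes, which display peptides from the cytosol, also lay toward clone 19. Of 21 tested, 15 were higher and 2 lower (71.4% and 9.52%, against 18.6% and 24.9% of all tested genes), with a median of 0.18. H2-K1, a classical heavy chain, read 678, 706 and 675 RPKM in clone 1, 1022, 969 and 983 in clone 19 and 771, 795 and 774 in the parental cells. Clone 1 lay below and clone 19 above the parental level without overlap, a log2 difference of 0.53 (adjusted p = 1.28e-07) and 0.32 with neighbours subtracted. H2-D1, the other classical heavy chain here, differed by 0.45 (adjusted p = 9.39e-08) and 0.21 with neighbours subtracted, H2-T22 by 0.50 and 0.29, and H2-Q6 by 0.44 and 0.20. These heavy chains are close in sequence, so reads may be split or lost among them. With neighbours subtracted 10 of the 21 were higher and 1 lower, and the median fell to 0.09. The light chain B2m, on another chromosome and named after its values were seen, differed by 0.17 (0.15 with neighbours subtracted).

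**Figure D4:**
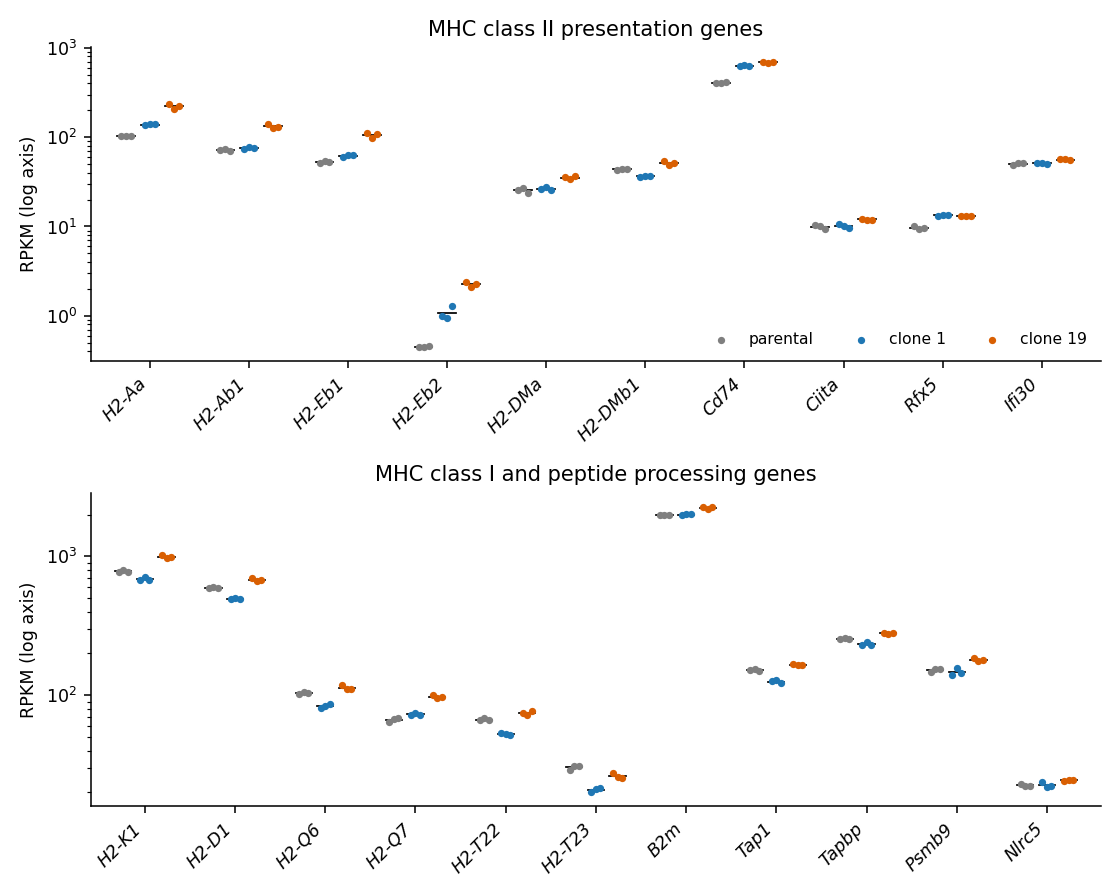
RPKM (log axis) in every library (points) with group means (bars) for MHC class II presentation genes (top) and class I and peptide processing genes (bottom). For the H2 chains on chromosome 17 all clone 19 libraries lie above all clone 1 libraries, with a smaller step for Cd74, Ciita and B2m and none for Rfx5.

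Interferon-stimulated genes differed in both directions. Of 51 tested, 16 were higher and 10 lower (31.4% and 19.6%, against 18.6% and 24.9% of all tested genes), with a median of 0.01. With neighbours subtracted 18 were higher and 6 lower. The 10 lower became 5 without clone 1 replicate 2 and 4 without clone 19 replicate 1 or replicate 3. Rtp4, a receptor chaperone, read 113, 116 and 119 RPKM in clone 1, 205, 187 and 192 in clone 19 and 107 to 115 in the parental cells (log2 difference 0.74, adjusted p = 2.00e-07). Trim30a went the other way, at 18.6, 19.3 and 19.8 RPKM in clone 1 and 12.2, 13.1 and 12.9 in clone 19 (-0.58, adjusted p = 1.35e-06). The clones did not overlap for either gene. Irf7, a transcription factor of the response, differed by 0.31 and Oasl2 by 0.30.

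Of 20 chemokines and cytokines tested, 6 were higher and 4 lower (30% and 20%, against 18.6% and 24.9% of all tested genes). Cxcl9, a ligand of CXCR3, read 1.24, 1.43 and 1.47 RPKM in clone 1, 5.17, 4.71 and 4.69 in clone 19 and 5.36 to 5.59 in the parental cells (log2 difference 1.51, SE 0.06, adjusted p = 7.41e-08). All knockout libraries lay below the parental ones, and clone 1 lay furthest below. Cxcl10, a ligand of the same receptor, followed the same order at 110 to 113 RPKM in clone 1, 146 to 158 in clone 19 and 176 to 178 in the parental cells (0.46, adjusted p = 8.76e-07). The alarmin Il33 was higher in clone 19 by 0.45, and the neutrophil attractant Cxcl5 was lower by 0.58 on the log2 scale, at 7.77 to 8.11 RPKM in clone 1 and 4.94 to 5.28 in clone 19.

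Complement and acute-phase genes were higher in clone 19 in 9 of 15 tested members and lower in 0, with a median of 0.29. These shares were 60% and 0%, against 18.6% and 24.9% of all tested genes. Saa3, an acute-phase apolipoprotein, read 46.3, 49.7 and 49.2 RPKM in clone 1, 138, 113 and 136 in clone 19 and 47.5, 51.6 and 49.8 in the parental cells. Clone 1 overlapped the parental level and clone 19 lay above it, a log2 difference of 1.40 (SE 0.07, adjusted p = 1.52e-07). C3, the central complement protein, read 7.05, 6.75 and 6.73 RPKM in clone 1 and 15.4, 14.1 and 16.4 in clone 19, a difference of 1.10 (SE 0.05, adjusted p = 1.22e-07), and 0.94 with neighbours subtracted because it lies on chromosome 17. The extracellular chaperone Clu differed by 1.11 (adjusted p = 4.78e-07), with both clones above its parental 2.07 to 2.19 RPKM. C1s1, a protease of the first complement component, read 32.1, 33.9 and 33.1 RPKM in clone 1 and 60.03, 53.8 and 58.1 in clone 19, from 61.4 to 64.6 in the parental cells (0.79, adjusted p = 1.77e-07).

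Epithelial keratins and junction genes differed in both directions, 12 higher and 8 lower of 25 tested (48% and 32%), with a median of 0.13. Beside Krt7, the higher members included Krt14, a basal keratin, at 46.4, 47.0 and 43.3 RPKM in clone 1 and 78.6, 75.2 and 75.2 in clone 19 (log2 difference 0.74, adjusted p = 1.14e-07). Cdh3, which encodes P-cadherin, read 42.3, 43.1 and 42.3 RPKM in clone 1 and 72.8, 68.5 and 75.04 in clone 19, on either side of its parental 57.1 to 58.0 (0.75, adjusted p = 7.31e-08). Cdh1, which encodes E-cadherin, stayed low, at 0.416 to 0.644 RPKM in clone 1 and 1.13 to 1.38 in clone 19 (0.78, adjusted p = 0.000212). None of these genes overlapped between the clones, as was so for 51.8% of all tested genes. Cdh1 was under 1 RPKM in all of clone 1, so for this gene the filter fixed the lack of overlap. Of 17 mesothelial markers 7 were higher and 5 lower, or 8 and 3 with neighbours subtracted: the membrane protein Nkain4 differed by 1.30 and Msln, which encodes mesothelin, by 0.29, or 0.05 with neighbours subtracted, which did not pass. Their part in these differences was not tested.

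Mesenchymal and fibroblast markers also differed in both directions, 7 higher and 12 lower of 26 (26.9% and 46.2%), with a median of -0.07, and 7 higher and 8 lower with neighbours subtracted. Pdgfrb, the PDGF receptor beta, read 5.72, 5.84 and 6.13 RPKM in clone 1 and 3.69, 4.10 and 3.45 in clone 19, from 7.85 to 8.32 in the parental cells (log2 difference -0.59, adjusted p = 2.14e-05, and -0.43 with neighbours subtracted). Inhba, an activin subunit, was lower by 0.56 on the log2 scale and the transcription factor Twist2 by 0.37, whereas Thy1 was higher by 0.64. Of 11 smooth muscle and contractile genes 6 were lower and 0 higher, or 8 lower and 2 higher with neighbours subtracted, with a median of -0.07 and led by Tagln (-0.43, or -0.29 with neighbours subtracted), Myl9 (-0.37), Actg2 (-0.34) and Cnn2 (-0.32). Actg2 was low, overlapped between the clones and was not called without clone 1 replicate 2 or 3 or clone 19 replicate 1 or 3. Tagln read 107, 110 and 111 RPKM in clone 1, 78.3, 84.2 and 80.4 in clone 19 and 77.2 to 79.99 in the parental cells, so clone 19 overlapped the parental level and clone 1 lay above it. Of 17 collagens 5 were higher and 7 lower (29.4% and 41.2%), with Col8a2 at 0.61 and Col18a1 at 0.37 against Col1a2 and Col4a6 (-0.40). In bulk RNA, a change in the share of cells of 1 state and a change in RNA per cell cannot be told apart.

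**Figure D5:**
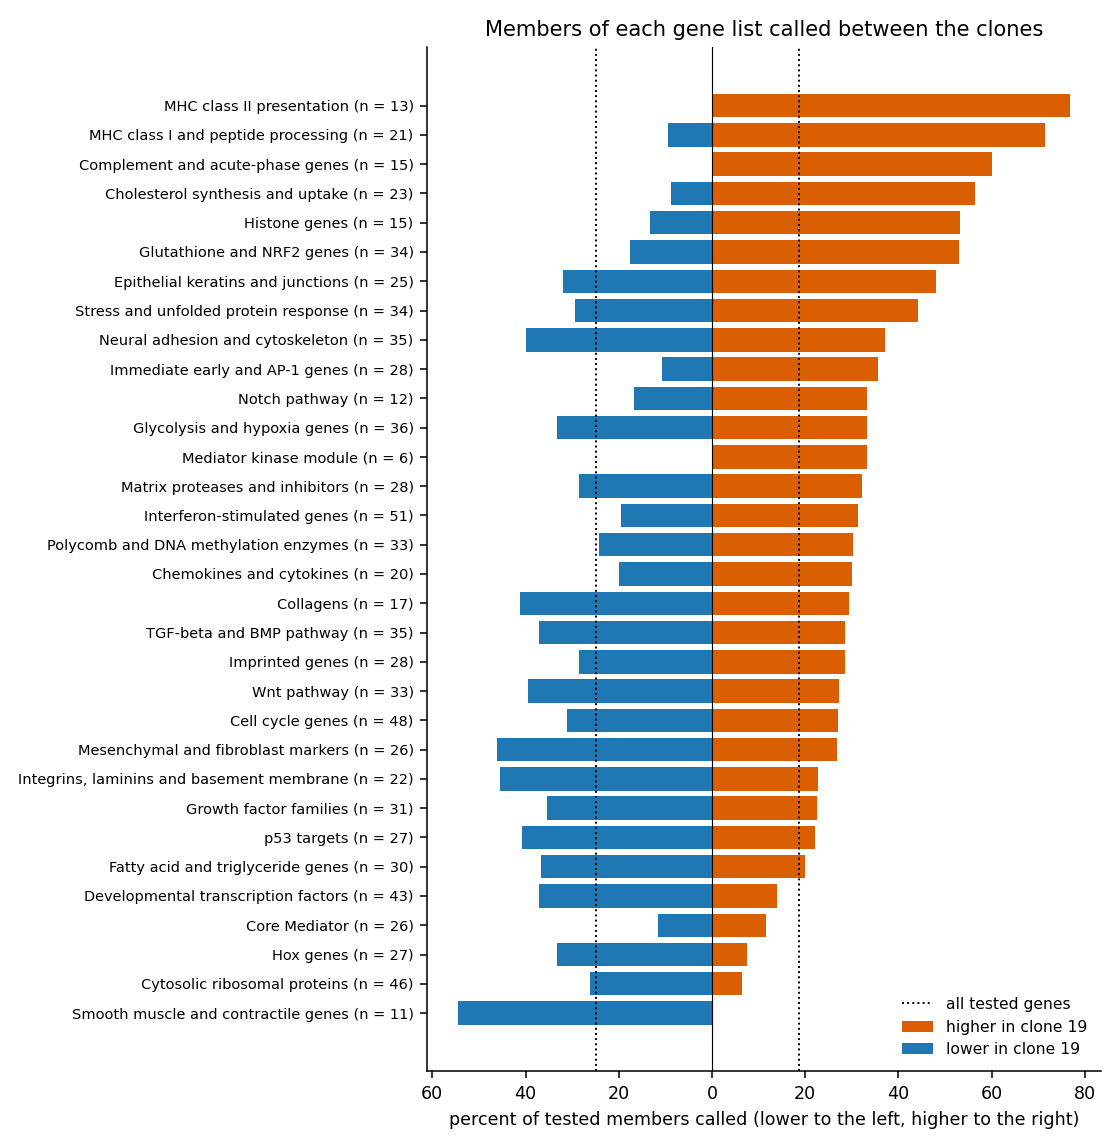
Percent of tested members called higher (orange, to the right) or lower (blue, to the left) in clone 19 for 32 gene lists, with the number tested in parentheses; dotted lines mark the shares of all tested genes, 18.6% higher and 24.9% lower. The lists with the largest shares higher are the 2 MHC lists (76.9% and 71.4%) and complement (60%), and smooth muscle genes have the largest share lower (54.5%).

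Of 35 genes of the TGF-beta and BMP pathways 10 were higher and 13 lower (28.6% and 37.1%). The 3 largest differences were in Id4, Id2 and Id3, which encode inhibitors of basic helix-loop-helix factors and are well known BMP targets. Id3 read 72.3, 73.9 and 71.7 RPKM in clone 1, 134, 119 and 123 in clone 19 and 130 to 135 in the parental cells (log2 difference 0.78, adjusted p = 1.89e-07). Id2 read 5.41, 4.45 and 4.57 RPKM in clone 1, 10.7, 9.14 and 11.1 in clone 19 and 12.02 to 12.6 in the parental cells (1.03, adjusted p = 4.22e-06). In both genes clone 19 lay near the parental level and clone 1 below it. Id4 was low, at 0.287 to 0.544 RPKM in clone 1 and 1.498 to 1.97 in clone 19 (1.38, adjusted p = 1.23e-05), and Id1, chosen after its values were seen, differed by 0.58 (adjusted p = 1.62e-07). Of the ligands Bmp6 was higher (0.74), while Bmp2 (-0.50) and Gdf6 (-0.58), also chosen after their values were seen, were lower.

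Cholesterol synthesis and uptake genes were higher in 13 of 23 tested members and lower in 2 (56.5% and 8.7%), with a median of 0.14. The steps were small: Msmo1, a sterol methyl oxidase, read 58.7, 60.2 and 62.2 RPKM in clone 1 and 79.5, 74.3 and 80.4 in clone 19, both above its parental 36.6 to 37.5 (log2 difference 0.37, adjusted p = 1.09e-05). Fdps, which makes farnesyl diphosphate, read 7.46 to 7.502 RPKM in clone 1 and 8.92 to 10.3 in clone 19 (0.35, adjusted p = 0.00084). Neither gene overlapped between the clones. The promoter table matched 16 of the 23 members. CCAAT was in 15 of these 16 (93.8%) against 43.4% of tested genes. TCACNCCAC, searched as the site of SREBP, was in 0 of 16 against 1.34%. That share is so low that 16 promoters cannot show whether the site is lacking.

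Glutathione and NRF2 genes, which conjugate and reduce oxidants, were higher in 18 of 34 tested members and lower in 6 (52.9% and 17.6%), with a median of 0.11. Nqo1, a quinone reductase and standard NRF2 target, read 10.6, 11.6 and 11.4 RPKM in clone 1, 19.8, 17.9 and 18.6 in clone 19 and 23.6 to 26.8 in the parental cells (log2 difference 0.72, adjusted p = 3.84e-06). Gsta4 differed by 0.56 (0.72 with neighbours subtracted), at 4.13 to 4.95 RPKM in clone 1 and 6.68 to 7.53 in clone 19 from 35.3 to 37.4 in the parental cells, and Mgst2 by 1.03 from levels under 1 RPKM in clone 1. The clones did not overlap in these genes, which for Mgst2 the filter fixed in advance. Gstp1 was the largest difference the other way. The metal-binding gene Mt2, at least 2-fold apart, read 16.5, 15.3 and 13.7 RPKM in clone 1 and 32.1, 29.8 and 32.3 in clone 19 (1.03, adjusted p = 2.48e-06).

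Among 28 imprinted genes tested, 8 were higher and 8 lower, or 28.6% in each direction against 18.6% and 24.9% of all tested genes. Beside Ndn, the higher members included the cell cycle inhibitor Cdkn1c (0.65), at 0.709 to 0.802 RPKM in clone 1 and 1.22 to 1.64 in clone 19. The lower members were led by Peg3, Snurf (-0.73) and Snrpn. Snurf and Snrpn share 1 transcription unit, so they are not separate members among the 8 lower. The spread of the list was wide and its median was 0.01. Of 15 histone genes 8 were higher and 2 lower (53.3% and 13.3%), with H2bc11 at 0.63 and the macroH2A gene Macroh2a2 at -0.39. The members of this family share sequence and partly lack the poly(A) tails on which many libraries depend.

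Of 27 Hox genes, 2 were higher and 9 lower (7.41% and 33.3%), or 5 lower without clone 1 replicate 2, and the median was -0.04. Hoxb9 stood opposite to its cluster neighbours: it read 1.90, 1.99 and 2.14 RPKM in clone 1, 3.998, 4.08 and 3.76 in clone 19 and 7.84 to 8.17 in the parental cells (log2 difference 0.82, SE 0.05, adjusted p = 1.27e-06). The clones did not overlap and both lay below the parental level. Hoxb7 (-0.31) and Hoxb2 (-0.30) were lower in clone 19, and the other higher gene was Hoxc13 (0.42). Among 43 developmental transcription factors outside the Hox clusters 6 were higher and 16 lower (14% and 37.2%), led by Nkx2-5, a cardiac homeobox gene, at 6.41, 6.47 and 6.49 RPKM in clone 1, 3.33, 4.40 and 3.97 in clone 19 and 3.53 to 4.02 in the parental cells (-0.67, adjusted p = 8.85e-05, and -0.89 with neighbours subtracted). Clone 19 overlapped the parental level there and clone 1 lay above it. Tbx20 (-0.49, or -0.36 with neighbours subtracted) and Foxd1 (-0.48) were also lower.

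Matrix, adhesion and growth factor lists each held members in both directions. Of 22 integrins, laminins and basement membrane genes 5 were higher and 10 lower: the nidogens differed in opposite directions, with Nid2 at 3.66 to 4.18 RPKM in clone 1 and 6.598 to 7.63 in clone 19 (0.77, adjusted p = 1.03e-05) and Nid1 at 14.3 to 15.7 and 10.7 to 11.7 (-0.42). Itga6, an integrin chain that binds laminin, differed by 0.62 and Itga1, one that binds collagen, by -0.50. Among matrix proteases Mmp17 (0.99) and Plat (0.74), the tissue plasminogen activator, were higher. Of 31 growth factor genes 7 were higher and 11 lower: Igfbp6, which binds IGF-II, read 15.6, 16.03 and 15.8 RPKM in clone 1, 34.3, 30.03 and 30.99 in clone 19 and 25.4 to 27.0 in the parental cells (0.98, adjusted p = 1.23e-07). Fgf10 was lower by 0.53 on the log2 scale, although both clones were above its parental 0.488 to 0.503 RPKM.

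Of 33 Wnt pathway genes 9 were higher and 13 lower (27.3% and 39.4%). Beside Sfrp2 the higher members included the receptors Ror1 (0.50) and Fzd4 (0.41), while Sfrp1, a relative of Sfrp2, was lower by 0.39 after falling from 20.2 to 20.6 RPKM in the parental cells to 1.16 to 1.62 in clone 1 and 0.876 to 0.987 in clone 19. Of 12 Notch pathway genes the ligands Jag2 (0.59) and Jag1 (0.34) and the modifier Lfng (0.41) were higher and the coactivator Maml2 (-0.49, or -0.36 with neighbours subtracted) lower. Of 35 neural adhesion and cytoskeleton genes 13 were higher and 14 lower, or 9 lower with neighbours subtracted, and Chl1, a cell adhesion molecule nearly absent from the parental cells at 0.285 to 0.379 RPKM, read 13.5, 12.3 and 12.9 in clone 1 and 7.89, 8.86 and 8.11 in clone 19 (-0.61, adjusted p = 3.36e-05).

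The remaining lists held smaller or mixed differences. Of 28 immediate early and AP-1 genes 10 were higher and 3 lower, or 5 lower without clone 19 replicate 2; after Ccn2 the largest were Ier3 (0.39), Dusp1 (0.35) and Jund (0.33). Ier3 and Dusp1 lie on chromosome 17, and with neighbours subtracted they differed by 0.15 and 0.14. Of 36 glycolysis and hypoxia genes 12 were higher and 12 lower: the carbonic anhydrase gene Car9 (1.05), the growth inhibitor Ddit4 (0.59) and the enolase gene Eno2 (0.45) lay higher and the glucose transporter gene Slc2a3 (-0.52) lower. Car9 was low, at 0.330 to 0.649 RPKM in clone 1 and 1.36 to 1.51 in clone 19, and passed the filter through clone 19 alone. Of 30 fatty acid and triglyceride genes 6 were higher and 11 lower (20% and 36.7%), or 7 lower without clone 19 replicate 1. Fads2, a fatty acid desaturase, read 146, 150 and 146 RPKM in clone 1 and 199, 195 and 205 in clone 19, both above its parental 93.7 to 98.5 (0.43, adjusted p = 5.28e-07). Its libraries did not overlap between the clones.

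Of 33 Polycomb and DNA methylation enzymes 10 were higher and 8 lower (30.3% and 24.2%), or 7 and 4 with neighbours subtracted. The 10 higher became 6 without clone 1 replicate 2, clone 1 replicate 3 or clone 19 replicate 3, and the 8 lower became 4 without clone 1 replicate 1 or clone 19 replicate 1 and 5 without clone 1 replicate 2. Phf1, an accessory subunit of PRC2, differed by 0.46 and Uhrf1, which recruits DNMT1 to replicated DNA, by 0.37, both on chromosome 17 and at 0.26 and 0.23 with neighbours subtracted. Of 46 cytosolic ribosomal protein genes 3 were higher and 12 lower (6.52% and 26.1%), or 7 lower without clone 1 replicate 2. With neighbours subtracted 1 was higher and 7 lower. Of the markers of other cells, 3 of 18 endothelial markers were tested and 2 were lower, Flt1 (-0.22, not called without clone 1 replicate 1 or 3 or clone 19 replicate 1) and Esam (-0.21, or -0.08 with neighbours subtracted, which did not pass). Uchl1 (0.32) and Tubb3 (0.12, or 0.21 with neighbours subtracted), the 2 of 15 neural and glial markers that were tested, were higher, and the only adipocyte or chondrocyte marker tested, Lpl, was at -0.09, a call (adjusted p = 0.0408) that was lost in 13 alternatives.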

How the data were processed

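The values were RPKM, which the authors deposited in 1 table of 9 libraries. GSNAP, DESeq and the build NCBIM37 are named in the submitters' processing notes without roles, with no annotation or counting rule in the sources used here. The members and gene lists were chosen with earlier results of these data known. Gene IDs were named through RefSeq (24998 of 28059) and GENCODE (16), and 3045 stayed unnamed; gene order came from the RefSeq table (GRCm38), used without coordinates except for its promoters. The main test was limma 3.58.1 (R 4.3.3) on the log2 of RPKM + 0.5 with trended prior variance, in 1 model of the 3 group means over all 9 libraries, two-sided, with Benjamini-Hochberg adjustment over 12253 genes and calls at an adjusted p under 0.05. The procedure was tested on simulated data. Named genes were the 12 largest called differences in each direction without overlap, up to 4 called members of each list, the kinase module and the ends and 2 largest genes of each stretch; others are marked. Alternatives changed the pseudocount, filter, scaling, weights, trend, libraries, block, test and window. Depth was estimated from the steps between low values, and RPKM give no exact counts.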

Additional observations from a re-analysis of the deposited data

Results flagged for a closer look

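In 10 genes that differed at least 2-fold between the clones, clone 19 was called above and clone 1 called below the parental cells, and the difference between the clones was itself called by limma with Benjamini-Hochberg adjustment. These were Spint2 (log2 difference 2.56), Lgi2 (2.37), Sfrp2 (1.78), Ankrd1 (1.51), Oplah (1.496), Pglyrp3 (1.48), Gnai1 (1.42), Id4 (1.38), Nkain4 (1.30) and Zfp385b (1.24). All 10 were higher in clone 19, as were 52 of the 54 genes called at 2-fold, so the choice of genes all but fixed this direction. Both comparisons with the parental cells used the same 3 parental libraries, so a high or low parental value moves both. Gnai1, an inhibitory G protein subunit, read 1.68, 2.004 and 2.01 RPKM in clone 1, 3.49, 3.41 and 3.66 in the parental cells and 5.72, 5.52 and 6.602 in clone 19. Oplah, a 5-oxoprolinase, read 1.15, 1.21 and 1.10 RPKM in clone 1, 2.01, 1.67 and 2.03 in the parental cells and 4.31, 3.86 and 4.32 in clone 19. No library overlapped between the 3 groups in either gene. Without the 2-fold minimum 241 of the 12253 tested genes had opposite calls, 131 with clone 19 above and 110 with clone 1 above.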

How the results depend on the processing

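The number of called genes stayed within 1.5 times of 5325 (2275 higher, 3050 lower) in all alternatives except the test against 2-fold, which called 16 genes, 16 higher and 0 lower. Leaving out 1 library gave 4402 to 5140 called genes, 1915 to 2214 higher and 2487 to 2940 lower. The 54 genes at 2-fold became 32 (32 higher, 0 lower) with a pseudocount of 1 and 30 (30 higher, 0 lower) with a filter at 3 RPKM. They ranged from 50 to 64 with 1 library left out, 48 to 59 higher and 0 to 5 lower. The 2 lower genes became 0 with no filter, with no mean-variance trend or with only the 6 knockout libraries, and 1 with median-ratio scaling or neighbours subtracted. The highest local median was 0.381 with runs of 31 genes, and 0.273 to 0.318 (lowest -0.262 to -0.191) with 1 library left out. Replicate numbers did not pair the samples: deviations of same-numbered libraries correlated at -0.02, 0.04 and -0.02, and a replicate block called 5102 genes, 54 of them at 2-fold. With neighbours subtracted Rps18 (-0.0576) and Rps2 (-0.0470) changed sign, and 16 of 196 named genes lost their call. RPKM without counts limit low genes, where a step of 1 read is large.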

Other observations

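Of 34 tested stress response genes 15 were higher and 10 lower in clone 19, or 6 lower with neighbours subtracted. The first 2 counts are 44.1% and 29.4%, against 18.6% and 24.9% of all tested genes. The higher members were led by Fgf21, a stress hormone (0.85), Chac1, a glutathione-degrading enzyme (0.57), Trib3 (0.30) and Sesn2 (0.30, or 0.18 with neighbours subtracted), all known targets of ATF4. Chac1 read 9.60, 10.4 and 10.6 RPKM in clone 1, 16.5, 14.9 and 14.8 in clone 19 and 20.1 to 20.9 in the parental cells. The clones did not overlap and both lay below the parental level. Lower members, named after their values were seen, included Xbp1 (-0.24, or -0.12 with neighbours subtracted), Sdf2l1 (-0.23) and Hyou1 (-0.16, or -0.05 with neighbours subtracted, which did not pass), genes of endoplasmic reticulum folding.

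Of 27 p53 targets 6 were higher and 11 lower (22.2% and 40.7%, against 18.6% and 24.9% of all tested genes). Cdkn1a, the cell cycle inhibitor p21, read 8.84, 8.19 and 8.55 RPKM in clone 1 and 5.97, 6.80 and 6.37 in clone 19 (log2 difference -0.39, or -0.56 with neighbours subtracted, adjusted p = 0.000216 by limma with Benjamini-Hochberg adjustment), while Ccng1, cyclin G1, read 57.6 to 59.1 and 70.4 to 76.4 RPKM (0.35). Pmaip1, a proapoptotic BH3 protein, was higher by 0.49. Of 48 cell cycle genes 13 were higher and 15 lower (27.1% and 31.2%), or 9 lower with neighbours subtracted.

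Among the muscle and neuronal genes at least 2-fold higher in clone 19, named after their values were seen, Actn3, an alpha-actinin of fast muscle, read 1.40, 1.66 and 1.48 RPKM in clone 1 and 4.999, 4.75 and 5.35 in clone 19. Unc45b, a myosin chaperone, read 2.21, 2.34 and 2.31 and then 6.88, 6.48 and 6.71 RPKM. The median ratio of observed to predicted CpG in the promoters of the 33 matched genes of the 52 was 0.625, against 0.791 for all tested genes with a promoter.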
